A study of Parasteatoda tepidariorum with 20 samples.

Results

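The change from the late germ disc to the early germ band was examined in whole embryos of the house spider *Parasteatoda tepidariorum*, by comparing embryos at stage (st) 5 late, 36 to 37 hours of development, with embryos at st7, 50 hours. These 4 libraries, of the 20 in the developmental series, were chosen by stage alone. The embryos, pooled for each library, came from 2 pairs of parents, and each pair gave 1 library per stage, called series 1 and series 2, so that each stage has n = 2. The st6 libraries, which lie between the 2 stages in time, were not used for the contrast, because their replicates differed more (r = 0.928 over gene models on the log2 scale) than those of st5 late (r = 0.978) or st7 (r = 0.981).

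At st5 the spider embryo is a radially symmetric germ disc, across which a group of mesenchymal cells, the cumulus, moves from the centre towards the rim. The arrival of the cumulus is followed by the opening of the disc at the dorsal side, and the disc is then remodelled into a germ band with a head end, a tail end and a ventral midline. Segments of the head and thorax form by subdivision of existing fields, while those of the opisthosoma arise from a posterior segment addition zone. Hedgehog, Dpp, Delta and Wnt8 signals are known to act in these steps in this spider.

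The unit of abundance is RPKM, in which the reads on a gene model are scaled by its exon length and by the library total, and where 2 values are given for a stage the first is that of series 1 and the second that of series 2. Changes are st7 minus st5 late on the scale of log2(RPKM + 1), with the standard error (SE) and a Benjamini-Hochberg adjusted p of limma over the 13375 gene models tested. A gene model is said to have risen or fallen where this p is under 0.05. The addition of 1 makes the change of weakly expressed genes appear smaller. The libraries held 9384547 to 17019009 reads, and both st7 libraries were deeper than both st5 late libraries. At the median exon length, 3 reads correspond to 0.12 to 0.217 RPKM. The embryos were taken whole, so that a change in the number of cells of a type and a change in RNA per cell cannot be told apart.

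From st5 late to st7, 469 gene models changed, or 3.51% of those tested. Of them, 329 rose (2.46%) and 140 fell (1.05%). Each of the 469 moved in the same direction in both series, which a call on these same values makes likely and which is no independent replication. The median over gene models of the mean abundance went from 1.05 to 7.64 RPKM among those that rose, and from 7.51 to 1.05 RPKM among those that fell. Of the 329 that rose, 158 were most abundant at st10, 79 at st8, 46 at st7, 7 at st6 and the remaining ones at st1 (18), st2 (18) or st3 (3). Of the 140 that fell, 38 were most abundant at st4, 32 at st5 early, 21 at st5 late, 21 at st2, 19 at st3, 4 at st1, 3 at st10 and 2 at st6. At st6, 321 of the 329 lay above both st5 late libraries in series 1, and 243 did so in series 2. Low st5 late values entered the call, which favours such counts, and the share over all gene models is not given. The st6 libraries also differed, with 84.6% of reads on gene models in series 1 and 92.8% in series 2. No timing is therefore read from these counts. Of the 126 gene models named as risen or fallen in what follows, 85 passed the test under each alternative processing in which they were tested, among those that kept the 4 libraries and pooled the spread over further stages, and 64 did so also with each of the 4 libraries left out in turn. Of the 85, 10 were not tested at the filter of 5 RPKM. Of the 89 with a fold, 24 had it move by over 1.5 times with 1 library left out, and some of these ranges are given beside the fold. Counts of named gene models, here and below, leave out those given as missed by the words of a list.

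**Figure D1:**
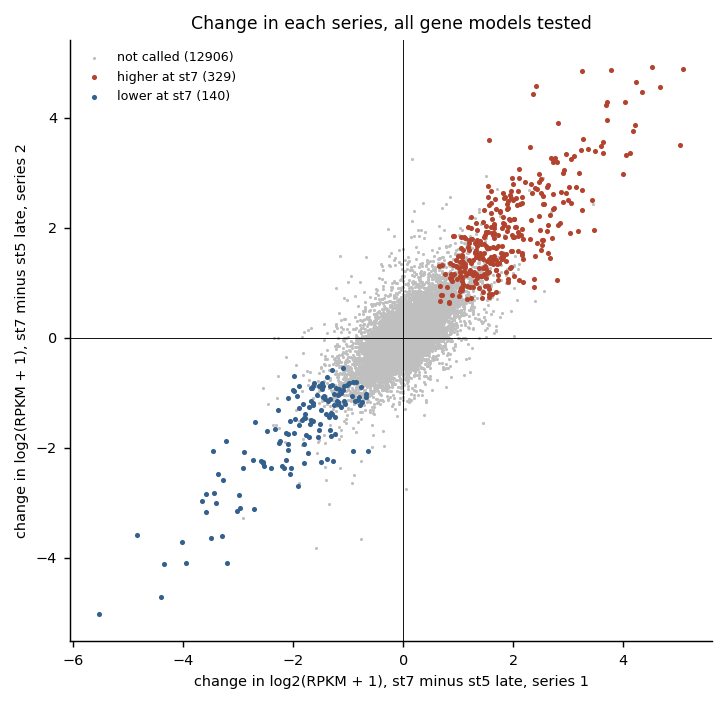
Change in log2(RPKM + 1) from st5 late to st7 in series 1 (horizontal axis) and series 2 (vertical axis), 1 point per gene model tested. The 329 gene models that rose lie at the upper right and the 140 that fell at the lower left, and over the 13375 gene models the 2 changes had r = 0.788.

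Transcription factors of the body axes and segments were among the gene models that rose. Of 57 tested segmentation and axis transcription factors, 15 rose (26.3%) and 3 fell (5.26%), with a median change of 0.28 beside 0.03 over all gene models. The gene for caudal (CDX-1-like, aug3.g12643, scaffold 1522, 47421 to 84374, minus strand), a homeobox factor known from the segment addition zone of this spider, was almost silent at st5 late, with 2 and 3 reads. Its abundance was 0.0514 and 0.109 RPKM at st5 late and 18.8 and 27 RPKM at st7, a rise of 4.45 (SE 0.41, adjusted p = 3.8e-05). It stood at 48.7 and 13.3 RPKM at st6 and at 3.41 and 2.24 RPKM at st8, so that its high values lay between st6 and st7. A homeobox gene described as XHOX-3-like (aug3.g17585, scaffold 2587, 24766 to 40760, plus strand), a name taken from an even-skipped relative of the frog, had no read in either st5 late library. It was measured at 21.9 and 29.2 RPKM at st7, at least 169-fold above the limit that 3 reads over both st5 late libraries would give (change 4.72, SE 0.27, adjusted p = 6.3e-07). Unlike caudal, this gene model gave like values in both st6 libraries (25.8 and 24.3 RPKM) and was still at 16.7 and 16.6 RPKM at st8.

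**Figure D2:**
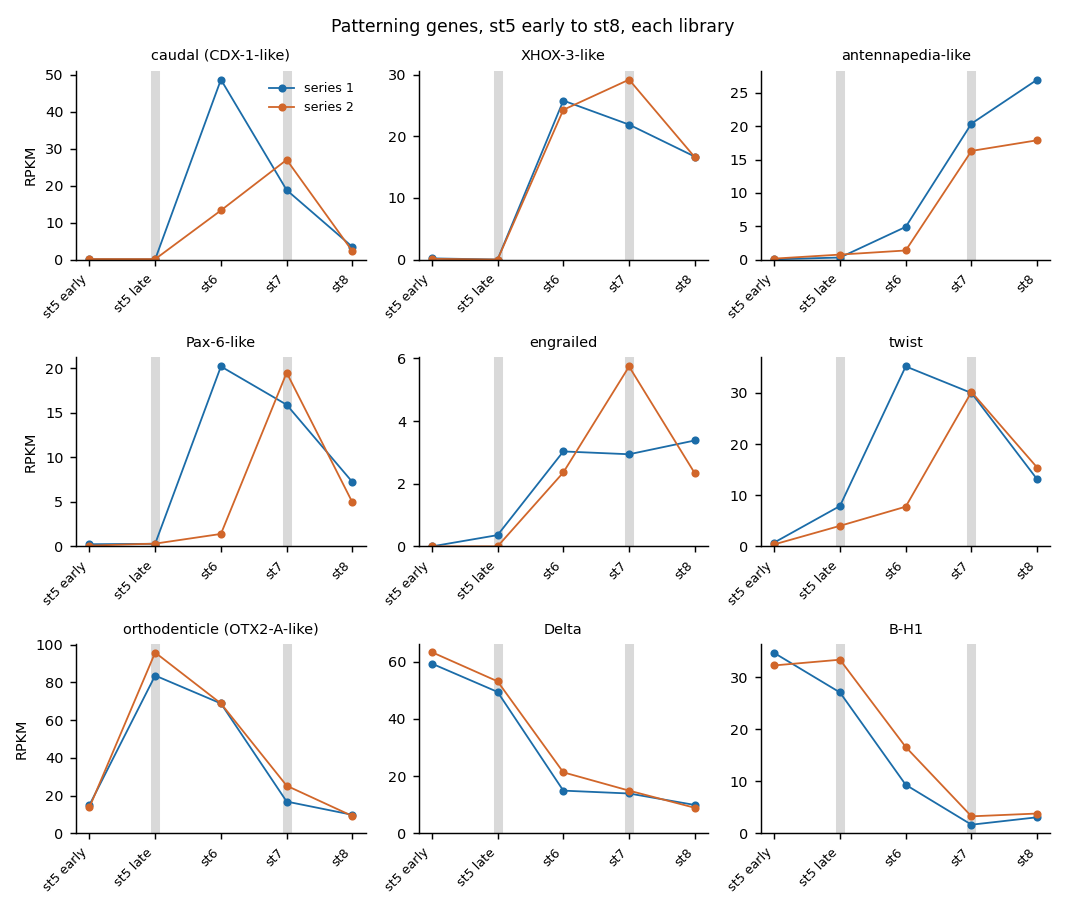
RPKM of 9 patterning genes in each library from st5 early to st8, with series 1 in blue, series 2 in orange and the 2 stages compared shaded grey. Caudal, XHOX-3-like, antennapedia-like, Pax-6-like and engrailed (aug3.g14050) are near 0 at st5 late and higher at st7. Twist is higher at st7 without passing the threshold, and orthodenticle, Delta and B-H1 are lower at st7 than at st5 late.

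Several gene models named after head and eye factors, most of them chosen after their values were seen, also rose. Pax-6, SIX3, SIX6, Emx and Rax genes are known for roles in the anterior head, the brain and the eyes of insects and vertebrates. The Pax-6-like gene model aug3.g19881 had 4 and 3 reads, or 0.294 and 0.312 RPKM, at st5 late. It was at 15.9 and 19.5 RPKM at st7 (rise of 3.83, SE 0.71, adjusted p = 0.0059, and up to 0.054 with a library left out). A second Pax-6 gene model, aug3.g19451, had no read at st5 late and 5.12 and 5.71 RPKM at st7, at least 37.1-fold above the 3-read limit (adjusted p = 1.9e-05). The 2 further Pax-6 gene models aug3.g22155 and aug3.g11688 rose by 2.76 and 1.22. The gene model described as SIX6-like (aug3.g3570), which RefSeq names Six3-1, rose 15.6-fold, from 1.03 and 0.757 to 12 and 15.9 RPKM (adjusted p = 0.00019). The gene models of SIX3-like (aug3.g328), EMX1-like (aug3.g2295), EMX2-like (aug3.g2297), EMX2 (aug3.g26210), Rax (aug3.g9068) and Rx1 (aug3.g9070) rose as well, by 1.37 to 1.99, and none of them exceeded 8.24 RPKM at st7. Lhx5-like (aug3.g10485), named after a LIM homeobox factor of the vertebrate forebrain, had 2 and 7 reads at st5 late and was at 7.5 and 7.61 RPKM at st7 (rise of 2.88, adjusted p = 2.8e-05). The values of the 2 stages did not overlap in any of these head genes. As these genes were called on the same values, this adds no support.

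The orthodenticle gene moved the other way. This gene (OTX2-A-like, aug3.g9172, scaffold 996, 78536 to 126829, plus strand) encodes a homeobox factor of the head and, in this spider, of the rim of the germ disc. Its abundance was 83.6 and 95.8 RPKM at st5 late and 16.8 and 25.2 RPKM at st7, a 4.27-fold fall (change −2.07, SE 0.28, adjusted p = 0.00049). Both st6 libraries were still at 68.8 RPKM, and st8 had 9.77 and 9.13 RPKM, so that most of the fall lay between st6 and st7. The second OTX2 gene model, aug3.g25936, was at 0.786 and 0.396 RPKM at st5 late and at 1.14 and 1.18 RPKM at st7 (change 0.45, adjusted p = 0.47). B-H1 (aug3.g8250, scaffold 887, 91498 to 141034, minus strand), named after the Bar homeobox gene of *Drosophila*, had 27.1 and 33.4 RPKM at st5 late and 1.65 and 3.26 RPKM at st7, a 12.3-fold fall (change −3.21, SE 0.32, adjusted p = 8.4e-05). Lower values at st7 were also found for both gene models of gooseberry, a paired-box segment polarity gene of *Drosophila*: aug3.g18397 fell 2.39-fold, from 55.3 and 53.1 to 21.3 and 24 RPKM (adjusted p = 0.041, and up to 0.3 under other processing), and aug3.g11337 fell 4.19-fold (adjusted p = 0.022). Of the gene models described as sal-like protein 1, relatives of *spalt* of *Drosophila*, aug3.g3675 fell 2.46-fold, from 48.9 and 37.3 to 15.1 and 19.9 RPKM (adjusted p = 0.017), while aug3.g1988 went from no read to 2.53 and 3.57 RPKM (adjusted p = 0.00045).

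Of the engrailed family, segment polarity genes in *Drosophila*, 2 gene models rose from a few reads. The gene model described as engrailed (aug3.g14050) had 4 reads in one st5 late library and none in the other. It was at 2.94 and 5.74 RPKM at st7 (rise of 2.14, SE 0.29, adjusted p = 0.00046). The gene model described as E30-like (aug3.g7393), which RefSeq names engrailed, had 2 reads and none at st5 late. It was at 6.27 and 1.06 RPKM at st7 (adjusted p = 0.011), with 0.016 RPKM and no read at st6 and 16.9 and 14.2 RPKM at st8. Its st7 values in the 2 series differed widely, and its call was lost in the fit of st5 early, st5 late, st7 and st8 (adjusted p = 0.12). The engrailed-like gene model aug3.g15243, was abundant at both stages, at 75.3 and 57.6 and then 61.5 and 53.6 RPKM (change −0.19, adjusted p = 1). Odd-paired (ZIC 4-like, aug3.g12202), a zinc finger factor of segmentation, was likewise abundant at both, at 40.4 and 51.1 and then 51.9 and 62.2 RPKM (change 0.32, adjusted p = 0.98).

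Of 21 tested Hox gene models, 6 rose (28.6%) and none fell, and the median change was 0.37. Hox genes give segments their identity along the head-to-tail axis. The largest rise was that of antennapedia-like (aug3.g15600, scaffold 48, 584792 to 683441, plus strand), which in insects specifies thoracic segments. It went from 0.3 and 0.741 RPKM to 20.4 and 16.3 RPKM, 35.3-fold higher (change 3.68, SE 0.34, adjusted p = 4.2e-05, 24.8-fold to 61.3-fold with a library left out). The next gene model on that scaffold, aug3.g15601, carries the same gene ID and rose by 2.80, so that the 2 may be parts of 1 gene. Hox-A9b (aug3.g25355) rose 8.47-fold, from 1.07 and 2.24 to 12.7 and 15.4 RPKM (adjusted p = 0.00046). Hox-A5-like (aug3.g15606) was at 3.88 and 3.27 RPKM at st5 late and at 15.5 and 20 RPKM at st7, 4.97-fold higher (adjusted p = 0.0054). Proboscipedia (aug3.g7953), which in *Drosophila* patterns the mouthparts, rose 5.33-fold, to 9.79 and 9.27 RPKM, and Hox-A1 (aug3.g27130) rose by 1.70, to 3.47 and 4.56 RPKM. Among the Hox gene models that did not pass the test, Hox-B4a-like (aug3.g1787) was the most abundant at st7, with 21.5 and 15.7 RPKM before and 75.1 and 76.1 RPKM after (change 1.98, SE 0.59, adjusted p = 0.092). Hox-A1-like (aug3.g7954), which RefSeq names labial, was at 16.9 and 23.1 RPKM at st5 late and 8.33 and 13.3 RPKM at st7 (adjusted p = 0.38). The ultrabithorax gene model aug3.g15595, named after the fly gene of the posterior thorax and anterior abdomen, was at 0.0182 and 0.103 RPKM and then at 0.595 and 0.0173 RPKM, and reached 34.3 and 41.8 RPKM only at st8.

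**Figure D3:**
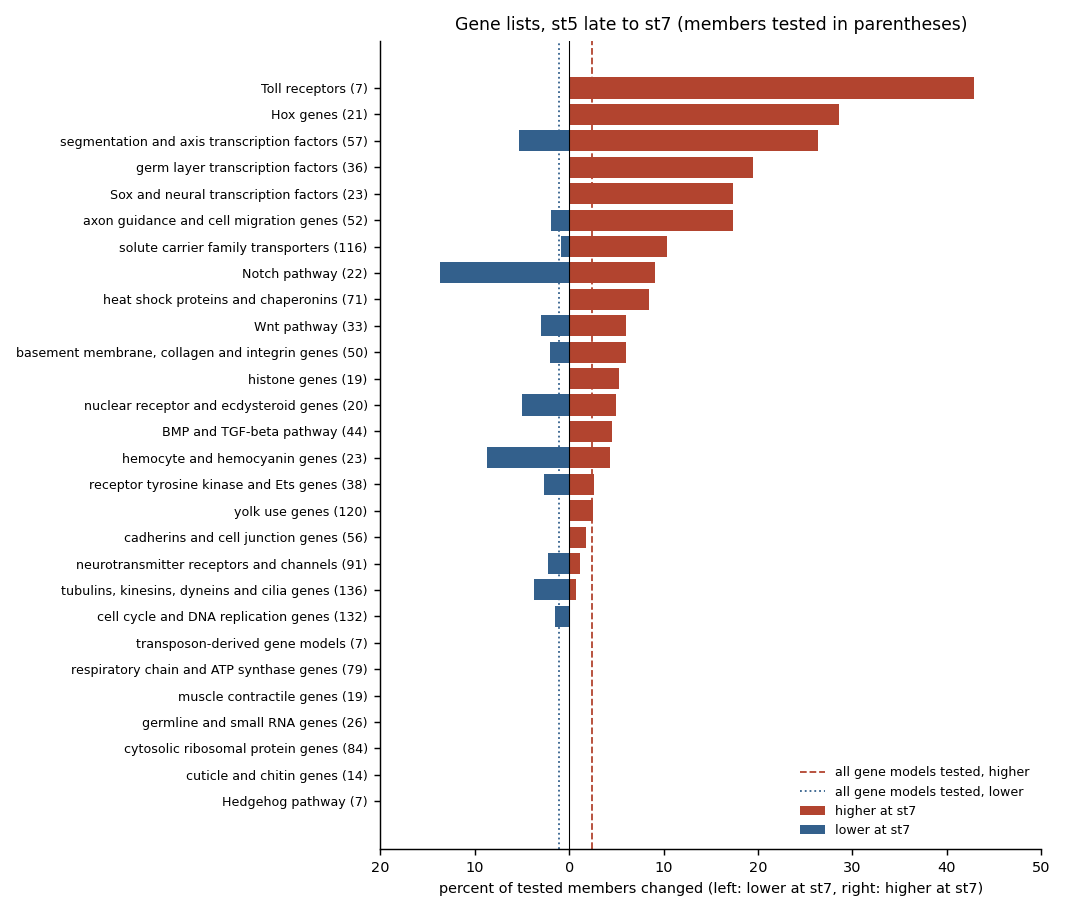
Share of the tested members of each gene list that rose (bars to the right) or fell (bars to the left) from st5 late to st7, in percent, with the number of members tested in parentheses and the share over all 13375 gene models as dashed (2.46%) and dotted (1.05%) lines. The lists made after the values were seen are not drawn, and of those drawn, Toll receptors (3 of 7), Hox genes (6 of 21) and segmentation and axis transcription factors (15 of 57) have the largest shares that rose.

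Of 36 tested germ layer transcription factors, 7 rose (19.4%) and none fell (median change 0.23). FoxB1-like (aug3.g9968), a forkhead factor, went from 0.229 and 0.277 to 13.9 and 13.3 RPKM (rise of 3.54, SE 0.42, adjusted p = 0.00019). FoxC1-A (aug3.g8638), named after a vertebrate factor of mesoderm, had 8 and 2 reads at st5 late and was at 6.2 and 7.65 RPKM at st7 (rise of 2.72, adjusted p = 0.00012). A GATA factor described as endothelial transcription factor GATA-2 (aug3.g20514) rose 4.96-fold, from 3.56 and 5.12 to 23.7 and 19.3 RPKM (adjusted p = 0.026, and 0.068 at most under other processing). The fork head domain gene model aug3.g4586 rose by 1.93, to 3.16 and 4.54 RPKM. Twist (aug3.g14287), a factor of mesoderm, was at 7.9 and 4.02 RPKM at st5 late and at 30 and 30.2 RPKM at st7. Its values did not overlap between the stages, but with 2 libraries against 2 the smallest two-sided exact permutation p is 0.333. The difference of 2.22 (SE 0.58) had an adjusted p of 0.052, or 0.012 with the replicate block, which removes the difference between the 2 pairs of parents. Forkhead (aug3.g6985), a factor of endoderm, was at 49 and 42.8 RPKM before and 31.6 and 35 RPKM after (change −0.45, adjusted p = 0.55).

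Several factors outside these lists accompanied them. Big brother (aug3.g1672, scaffold 335, 569291 to 609967, plus strand), which in *Drosophila* encodes the partner of Runt factors, went from 1.49 and 1.12 to 31.6 and 40.2 RPKM, 27.5-fold higher (change 3.99, SE 0.40, adjusted p = 8.3e-05). A second big brother gene model, aug3.g3514, rose by 2.16, to 6.24 and 3.62 RPKM. The Runt-type gene model aug3.g2762, in the same period, rose 21.1-fold, from 0.235 and 0.499 to 8.2 and 7.29 RPKM (adjusted p = 0.012, and up to 0.12 with a library left out). Both partners were thus low at st5 late and higher at st7 in both series. Of 23 tested Sox and neural transcription factors, 4 rose (17.4%): Sox-2 (aug3.g11061, 2.92-fold), SOX-14 (aug3.g8208, 3.11-fold), Sox-13 (aug3.g13250, 3.4-fold) and a POU class 2 factor (aug3.g13364, 3.06-fold). Sox-2, known for its part in early neural tissue of vertebrates and flies, was at 6.45 and 6.98 RPKM and then at 18 and 21.2 RPKM (adjusted p = 0.0063).

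Members of the signalling pathways that pattern the germ disc were examined next. No tested member of the Hedgehog pathway passed the limma test (7 tested, 2 with an unadjusted p under 0.05, none called with voom weights, lowest adjusted p = 0.13, median change −0.39). The hedgehog gene (aug3.g4322) was at 28.8 and 24.6 RPKM at st5 late and at 18.1 and 18.6 RPKM at st7 (change −0.51, adjusted p = 0.67). Its receptor gene patched (aug3.g14374) was at 55.1 and 58.8 RPKM and then at 88 and 78.3 RPKM (change 0.54, adjusted p = 0.57). The 2 genes thus had differences of opposite sign, neither past the threshold.

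Of 44 tested members of the BMP and TGF-beta pathway, 2 rose (4.55%) and none fell, with 4 called under the replicate block and 0 with voom weights. The ligand gene decapentaplegic (aug3.g16926) was at 29.6 and 25.4 RPKM before and 23.4 and 25.8 RPKM after (change −0.15, adjusted p = 1). Its antagonist short gastrulation (aug3.g23966), which in this spider is needed for the ventral side, was at 23 and 20.5 RPKM at st5 late and at 45.8 and 50.9 RPKM at st7. These values did not overlap, which with 2 libraries against 2 is weak evidence by itself. The difference of 1.12 (SE 0.37) had an adjusted p of 0.15, or 0.044 with the replicate block. The members that rose were 2 genes named after modulators of BMP signalling in vertebrates: BAMBI (aug3.g18541), a receptor-like inhibitor, 3.2-fold (adjusted p = 0.029), and kielin/chordin-like (aug3.g11772), 6.44-fold (adjusted p = 0.041).

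Among 33 tested Wnt pathway members, 2 rose (6.06%) and 1 fell (3.03%). Armadillo (aug3.g10093), the beta-catenin of the adherens junction and of Wnt signalling, rose 2-fold, from 148 and 128 RPKM to 274 and 279 RPKM (change 1.00, SE 0.23, adjusted p = 0.024). This call was lost with median-ratio scaling (adjusted p = 0.16). The ligand gene Wnt-11b-2 (aug3.g1356) had 1 and 2 reads at st5 late and was at 2.41 and 2.55 RPKM at st7 (rise of 1.66, adjusted p = 0.0018). Wnt-5b-like (aug3.g10820) fell 2.63-fold, from 16.1 and 10.8 to 4.55 and 5.7 RPKM (adjusted p = 0.035, and up to 0.53 under other processing). A longer gene model with the same gene ID on another scaffold, aug3.g1632, was at 32.1 and 20.3 RPKM and then at 9.14 and 6.65 RPKM, with an adjusted p of 0.18. Wnt8 (aug3.g5617), the ligand known from the segment addition zone, was at 25.4 and 26.7 RPKM and then at 23.3 and 17.9 RPKM (change −0.34, adjusted p = 0.69). A gene outside this list, described as palmitoleoyl-protein carboxylesterase notum (aug3.g9270), a secreted enzyme that inactivates Wnt ligands, rose 14.2-fold, from 2.96 and 1.85 to 26.7 and 41.8 RPKM (change 3.36, SE 0.53, adjusted p = 0.0018).

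Of 22 tested Notch pathway members, 2 rose (9.09%) and 3 fell (13.6%). The ligand gene Delta (aug3.g25248, scaffold 93, 110351 to 127004, minus strand) was at 49.4 and 53.1 RPKM at st5 late and at 13.9 and 14.9 RPKM at st7, a 3.56-fold fall (change −1.76, SE 0.34, adjusted p = 0.0082). With any 1 of the 4 libraries left out, the fall no longer passed the test (adjusted p up to 0.09). The second Delta gene model, aug3.g12734, fell 4.88-fold, from 17.9 and 22.8 to 4.45 and 3.88 RPKM (adjusted p = 0.0014). Both had reached 14.9 and 21.3 RPKM, and 3.36 and 6.5 RPKM, at st6, so that they were low before st7. Of the Notch target family, HES-1-A (aug3.g17723) fell 2.83-fold (adjusted p = 0.015). HES-7.1-like (aug3.g20968) rose 4.27-fold, from 7.61 and 5.99 to 29.3 and 28.8 RPKM (adjusted p = 0.029). Both HES calls were lost under other processing (adjusted p up to 0.14 for HES-1-A and 0.061 for HES-7.1-like). The ligand gene jagged-1b (aug3.g11708) rose 3.27-fold, to 1.82 and 1.86 RPKM, a call lost with median-ratio scaling (adjusted p = 0.11).

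Of 38 tested receptor tyrosine kinase and Ets genes, 1 rose and 1 fell (2.63% each), or 4 called with the replicate block. The SAM pointed domain Ets factor (aug3.g4238) fell 5.29-fold, from 7.24 and 12.6 to 1.92 and 1.84 RPKM (adjusted p = 0.0009), and ephrin-B2a (aug3.g25262), a membrane-bound ligand, rose 2.73-fold (adjusted p = 0.024). The words of this list missed the receptor tyrosine kinases Cad96Ca-like (aug3.g9807) and ROS (aug3.g9836). These rose 8.95-fold and 5.84-fold (adjusted p = 0.0024 and 0.0059). Giant-lens-like (aug3.g839), also outside this list, which in *Drosophila* inhibits the EGF receptor, fell 3.98-fold, from 14.6 and 14.2 to 3.19 and 4.05 RPKM (adjusted p = 0.03). That call was lost under 3 alternatives (adjusted p up to 0.22) and with any 1 of the 4 libraries left out (up to 0.26). Pro-neuregulin-2 (aug3.g12807), outside the list too and named after a vertebrate ligand of EGF receptor relatives, went from 0.344 and 0.108 to 11.6 and 10.8 RPKM (rise of 3.32, adjusted p = 0.0012).

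Of 7 tested Toll receptors, 3 rose (42.9%), and the median change was 0.91. Toll receptors act in immunity, and some of the family orient cell rearrangement during germ band extension in *Drosophila*. Tollo (aug3.g6063, scaffold 716, 504600 to 543436, plus strand) was at 1.54 and 1.5 RPKM at st5 late and at 27.6 and 25.2 RPKM at st7, 17.3-fold higher (change 3.44, SE 0.37, adjusted p = 0.00012). A second Tollo gene model, aug3.g1692, rose 3.49-fold, to 3.07 and 5.41 RPKM (adjusted p = 0.047). This call was lost under 4 alternatives (adjusted p up to 0.11) and with any 1 of the 4 libraries left out (up to 0.39). The gene model described as toll (aug3.g19333) had 4 and 3 reads at st5 late and was at 0.999 and 1.22 RPKM at st7 (rise of 0.96, adjusted p = 0.012, and up to 0.11 with a library left out, each of which ended the call).

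Some genes for cell guidance and for the extracellular matrix passed the test. Of 52 tested axon guidance and cell migration genes, 9 rose (17.3%) and 1 fell (1.92%). The teneurin-m gene models aug3.g22153 and aug3.g11824, named after cell-surface proteins that match partner neurons in *Drosophila*, rose 7.67-fold and 4.98-fold, and aug3.g11824 went from 3.92 and 3.16 to 17.9 and 17.4 RPKM. The 2 gene models of the netrin receptor UNC5C, aug3.g17685 and aug3.g18649, which share a gene ID, rose 6.32-fold and 4-fold (adjusted p = 0.0049 and 0.013). The netrin-1 gene model (aug3.g3497), for the ligand of this receptor, had 3 and 2 reads at st5 late and was at 1.07 and 1.6 RPKM at st7, with 11.6 and 10.9 RPKM at st8 (rise of 1.14, adjusted p = 0.002). For the guidance ligand slit, the gene model aug3.g2444 rose by 1.94 (adjusted p = 0.021) and the slit homolog 1-like gene model aug3.g17108 fell by 0.98 (adjusted p = 0.025).

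Among 50 tested basement membrane, collagen and integrin genes, 3 rose (6%) and 1 fell (2%), and the median change was 0.39. Nidogen-2 (aug3.g7060), which links laminin with collagen IV, rose 11.1-fold, from 2.87 and 0.995 to 28.1 and 14.9 RPKM (change 2.95, SE 0.36, adjusted p = 0.00023). SPARC-like (aug3.g26560), named after a collagen-binding matrix protein, rose 3.46-fold, from 14 and 6.28 to 39.8 and 30.3 RPKM (adjusted p = 0.0087). The laminin alpha gene (aug3.g15376) rose 2.44-fold (adjusted p = 0.04), and papilin (aug3.g4424) fell 3.17-fold (adjusted p = 0.022). In SPARC-like, nidogen-2 and laminin alpha, series 1 was higher than series 2 at both stages. Of 56 tested cadherin and cell junction genes, neurexin-4-like (aug3.g949), a septate junction protein in *Drosophila*, rose 5.41-fold (adjusted p = 0.0028), the single call of the list (2 with the replicate block).

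The gene model with the largest rise of all named ones encodes a protein described as zig-3 (aug3.g15195, scaffold 35, 1514603 to 1551468, minus strand), a secreted immunoglobulin-domain protein of *Caenorhabditis elegans*. It had a single read in the 2 st5 late libraries together and was at 33.1 and 32.4 RPKM at st7 (change 4.99, SE 0.51, adjusted p = 8.6e-05). At st6 it was at 6.75 and 0.568 RPKM and at st8 at 52.2 and 63.9 RPKM. Scabrous-like (aug3.g943), a secreted glycoprotein that affects Notch signalling in *Drosophila*, rose 9.65-fold, from 1.75 and 0.858 to 15 and 10.1 RPKM (adjusted p = 0.00011).

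A set of metabolic genes, grouped after the values had been seen, rose over the same interval. Of 14 tested genes of methionine and cysteine metabolism, 4 rose (28.6%) and none fell. The S-adenosylmethionine synthase gene model aug3.g7766 (scaffold 836, 73316 to 88903, plus strand), whose enzyme makes the main methyl donor of the cell, was at 0.668 and 1.21 RPKM at st5 late and at 41.2 and 50.8 RPKM at st7, 48.9-fold higher (change 4.61, SE 0.31, adjusted p = 3.6e-06). Cysteine dioxygenase (aug3.g27004), which starts the breakdown of cysteine, rose 17.8-fold, from 0.839 and 2.02 to 28.2 and 22.6 RPKM (adjusted p = 0.00015). Betaine-homocysteine methyltransferase (aug3.g3986), which remakes methionine, rose 9.08-fold, and cystathionine beta-synthase (aug3.g12656), which leads homocysteine towards cysteine, rose 5.48-fold (adjusted p = 0.023 and 0.0022).

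Among 60 tested genes of fatty acid and acetoacetate activation, 10 rose (16.7%) and none fell. The acetoacetyl-CoA synthetase gene model aug3.g3110, for an enzyme that returns the ketone body acetoacetate to lipid synthesis, was at 0.427 and 0.0288 RPKM at st5 late and at 22.2 and 19 RPKM at st7, 90.4-fold higher (change 4.15, SE 0.50, adjusted p = 0.00021). This fold rests on 21 reads and 1 read at st5 late, and is 717 without the first of these libraries and 48.2 without the second. A second one, aug3.g20929, had 1 read in each st5 late library and was at 24.4 and 29 RPKM at st7 (change 4.40, adjusted p = 0.00072). The mitochondrial 3-ketoacyl-CoA thiolase (aug3.g10140), the last enzyme of beta-oxidation, rose 3.89-fold, from 79.6 and 73.7 to 288 and 309 RPKM (adjusted p = 0.00044). The long-chain fatty acid ligase aug3.g13804 rose by 3.39 and its neighbour aug3.g13803, with the same gene ID, by 2.74.

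Of 22 tested glycolysis and gluconeogenesis genes, 5 rose (22.7%) and none fell, with a median change of 0.71. Glyceraldehyde-3-phosphate dehydrogenase (aug3.g12628) rose 6.66-fold, from 21.6 and 15.7 to 148 and 101 RPKM (adjusted p = 0.00043), and aldolase-like (aug3.g11046) 4.6-fold, from 109 and 57.7 to 427 and 340 RPKM (adjusted p = 0.014). Glucose-6-phosphate isomerase (aug3.g25372) and fructose-1,6-bisphosphatase (aug3.g16495) rose 2.11-fold and 2.71-fold. In each of these 4 genes both st7 libraries lay above both st5 late libraries, which adds no support, as they were called on the same values.

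Of the other large rises, choline/ethanolamine kinase-like (aug3.g21089), for the first step of phospholipid synthesis from choline, rose 24-fold, from 1.54 and 1.13 to 43.3 and 20.8 RPKM (adjusted p = 0.00015). High affinity copper uptake protein (aug3.g13683) rose 31.6-fold, to 18.2 and 14 RPKM (adjusted p = 0.0014). The 2 gene models of estrogen sulfotransferase, aug3.g18316 and aug3.g18899, rose 25.8-fold and 29.9-fold (adjusted p = 0.0088 and 0.025), or 12.9-fold to 63.6-fold and 15.9-fold to 78.5-fold with a library left out. They share 1 gene ID, lie on separate scaffolds and may be copies of 1 gene, in which case reads of equal fit to both would have been discarded. Of 116 tested gene models in the list of solute carrier family transporters, 12 rose (10.3%) and 1 fell (0.862%). Monocarboxylate transporter 12-B (aug3.g8063, rise of 2.47) and organic cation transporter 1-like (aug3.g22690, 7.36-fold) had the largest rises within the list. The mitochondrial carrier family 25 member 38 (aug3.g7615) fell 3.46-fold, from 85 and 92.3 to 25.4 and 25.8 RPKM (adjusted p = 0.0006). The list does not hold all transporters. Outside it lie the copper uptake gene above, the multivitamin transporters below and the equilibrative nucleoside transporter (aug3.g7477), which fell 12.5-fold. Of 9 tested sodium-dependent multivitamin transporters, a list also made after the values were seen, 4 rose (44.4%).

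**Figure D4:**
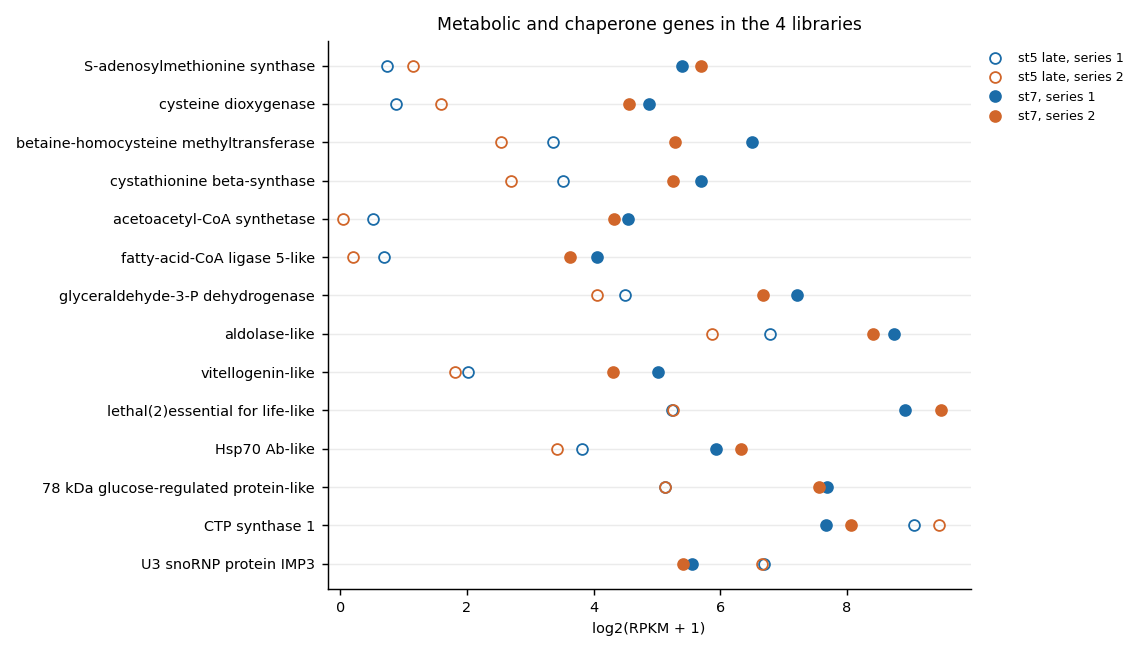
Abundance of 14 metabolic and chaperone genes as log2(RPKM + 1), with open circles for st5 late and filled circles for st7, series 1 in blue and series 2 in orange. In the first 12 genes both filled circles lie to the right of both open ones, and in CTP synthase 1 and IMP3 to the left.

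Whole embryos hold yolk and other cells beside those of the germ disc and germ band. Of 120 tested yolk use genes (lipases, proteases and lipoproteins), 3 rose (2.5%) and none fell, close to the share over all gene models. The summed abundance of the 291 gene models of this list was 3265.8 and 2717.2 RPKM at st5 late and 3589.7 and 3123.3 RPKM at st7, and 92 of them were at 0 in the 4 libraries. Vitellogenin-like (aug3.g18714), named after the yolk protein precursor, rose 9.05-fold, from 3.04 and 2.51 to 31.5 and 18.8 RPKM (change 2.75, SE 0.31, adjusted p = 0.00015). The pancreatic lipase-related gene model aug3.g26364 had 1 and 2 reads at st5 late and was at 6.95 and 8.33 RPKM at st7 (adjusted p = 0.00011). The lipid storage droplet gene model aug3.g6127, outside the list, rose 6.82-fold, from 19.8 and 5.63 to 101 and 72.1 RPKM (adjusted p = 0.011).

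Of 23 tested hemocyte and hemocyanin genes, 1 rose (4.35%) and 2 fell (8.7%), and the 36 gene models of the list summed to 84.4 and 88.2 RPKM at st5 late and 93.1 and 77.7 RPKM at st7. Croquemort (aug3.g18374), a scavenger receptor of hemocytes in *Drosophila*, rose 3.81-fold (adjusted p = 0.0028), and the proclotting enzyme aug3.g17419 fell 6.33-fold, from 13.4 and 19.3 to 2.12 and 3.04 RPKM (adjusted p = 0.0013). None of 26 tested germline and small RNA genes, of 19 muscle contractile genes, of 14 cuticle and chitin genes or of 7 transposon-derived gene models passed the limma test, and their median changes were −0.09, −0.01, −0.03 and −0.18. At an unadjusted p under 0.05 there were 3, 2, 1 and 0 of them, and none was called with voom weights. The words of the cuticle list missed aug3.g16496, described as adult-specific rigid cuticular protein 12.6-like, which rose. The germline list summed to 1394.3 and 1260.5 RPKM before and 1016.1 and 1032.9 RPKM after, and the muscle list to 231.6 and 193.4 RPKM before and 269.1 and 212.0 RPKM after. The part of these cells in the changes of the patterning genes was not tested.

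Of 71 tested heat shock proteins and chaperonins, 6 rose (8.45%) and none fell. A small heat shock gene outside this list, lethal(2)essential for life-like (aug3.g1733, scaffold 339, 1239060 to 1240352, minus strand), was at 36.8 and 37.3 RPKM at st5 late and at 483 and 715 RPKM at st7, 16.2-fold higher (change 3.95, SE 0.77, adjusted p = 0.0087, and up to 0.082 with a library left out). The st6 libraries stood apart, at 324 and 43.4 RPKM. The major heat shock 70 kDa protein Ab-like (aug3.g5255) rose 6.08-fold, from 13.1 and 9.72 to 59.8 and 78.9 RPKM (adjusted p = 0.00021), after 105 and 148 RPKM at st6. Of the chaperones of the endoplasmic reticulum, the 78 kDa glucose-regulated protein gene (aug3.g26564) rose 5.76-fold, from 33.9 and 34 to 205 and 187 RPKM (adjusted p = 0.0032), and calreticulin-like (aug3.g58) 3.88-fold, from 68.5 and 47.1 to 248 and 201 RPKM (adjusted p = 0.0037).

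Of 20 tested nuclear receptor and ecdysteroid genes, 1 rose and 1 fell (5% each). Cytochrome P450 307a1 (aug3.g6136), which in *Drosophila* is spook, an enzyme of ecdysteroid synthesis, had 6 and 11 reads at st5 late and was at 10.8 and 6.03 RPKM at st7 (rise of 2.97, SE 0.33, adjusted p = 0.00013). Cholesterol 7-desaturase (aug3.g16091), outside this list but the first enzyme of that route, rose by 1.53, to 5.23 and 2.34 RPKM (adjusted p = 0.015). That call was lost in the fit of st5 early, st5 late, st7 and st8 (adjusted p = 0.069). The nuclear receptor of subfamily 2 group E (aug3.g794), the family of *tailless*, fell 2.5-fold, from 40.5 and 35.2 to 15.1 and 15.3 RPKM (adjusted p = 0.023). With a pseudocount of 0.1 this call was lost (adjusted p = 0.21).

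The largest fall among named gene models came from neighbouring genes. On scaffold 626, between 5596 and 202863, the 4 adjacent gene models aug3.g5177 to aug3.g5180 each fell. The first is described as inner centromere protein A-like, after a subunit of the chromosomal passenger complex that acts at mitosis, and the other 3 as kinesin heavy chain, the motor subunit of conventional kinesin, or as like it. The gene model aug3.g5177 was at 62.7 and 67.2 RPKM at st5 late and at 0.378 and 1.1 RPKM at st7, 87.8-fold lower (change −5.28, SE 0.69, adjusted p = 0.00039, 59-fold to 172-fold with a library left out). The kinesin gene model aug3.g5179 was at 36.2 and 44.2 RPKM and then at 0.76 and 0.721 RPKM, 54.3-fold lower (adjusted p = 0.00011). The gene models aug3.g5180 and aug3.g5178 fell 40.7-fold and 13.5-fold (adjusted p = 3.8e-05 and 0.00013). The 4 have separate gene IDs and had 130 to 424 RPKM at st5 early, and at st10 they were at 0.315 RPKM or less. These 4 formed the longest of 14 runs of adjacent gene models called in the same direction, which together hold 33 gene models. In 5 of the 14 runs there is 1 gene ID only, so that each of these may be parts of 1 gene. The number of runs was not tested. A kinesin heavy chain-like gene model on another scaffold, aug3.g11117, fell 13.1-fold (adjusted p = 0.0025).

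**Figure D5:**
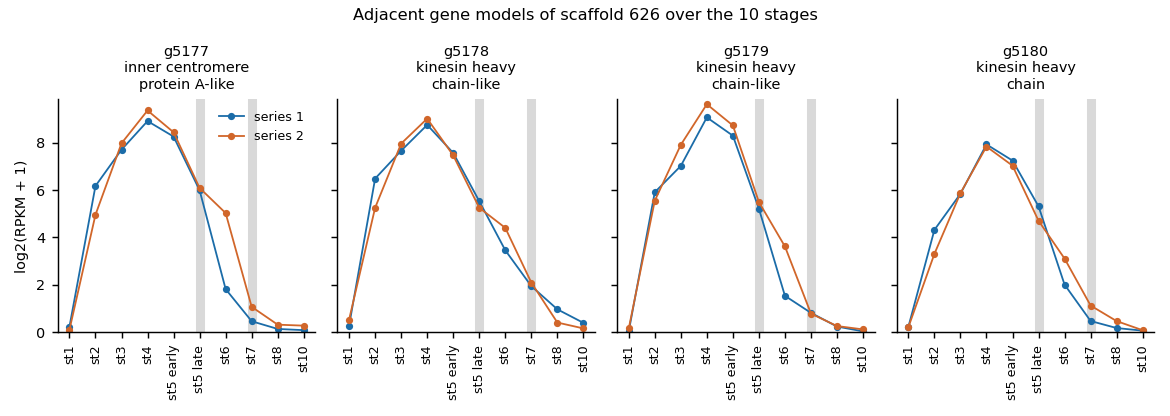
log2(RPKM + 1) of the 4 adjacent gene models of scaffold 626 over the 10 stages in series 1 (blue) and series 2 (orange), with st5 late and st7 shaded. Each lies high at st5 early, lower at st5 late and lower again at st7, and the largest fall, that of aug3.g5177, is from 62.7 and 67.2 RPKM to 0.378 and 1.1 RPKM.

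Other genes of the cell skeleton and of division gave few calls. Of 136 tested gene models of tubulins, kinesins, dyneins and cilia, 5 fell (3.68%), 4 of them the kinesin gene models named above, and 1 rose (0.735%). The tubulin alpha chain-like gene model aug3.g21245 fell 9.45-fold, from 4.78 and 10.3 to 0.404 and 1.19 RPKM (adjusted p = 0.045), or 6-fold to 18.6-fold with a library left out. Its call was lost with median-ratio scaling, with no filter and with voom weights (adjusted p up to 0.087). The tubulin beta chain gene model aug3.g25728 rose 5.7-fold, from 44.2 and 37.5 to 286 and 181 RPKM (adjusted p = 0.0059). Of 132 tested cell cycle and DNA replication genes, none rose and 2 fell (1.52%), the inner centromere protein gene model and cyclin-dependent kinase 9 (aug3.g4670, 3.25-fold, from 100 and 123 to 25 and 43.7 RPKM, adjusted p = 0.027), whose textbook role is in transcription elongation. Of 91 tested neurotransmitter receptors and channels, 1 rose (1.1%) and 2 fell (2.2%).

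Further genes fell. Trapped in endoderm-1 (aug3.g18584, scaffold 2898, 193086 to 280796, plus strand), a receptor that in *Drosophila* directs germ cell migration, was at 32.5 and 35.9 RPKM at st5 late and at 1.07 and 1.81 RPKM at st7, 23.8-fold lower (change −3.87, SE 0.36, adjusted p = 4.3e-05). It had reached 6.69 and 3.61 RPKM at st6. BTB/POZ domain-containing protein 9-like (aug3.g25858) fell 10.3-fold, from 112 and 126 to 7.92 and 15.2 RPKM (adjusted p = 0.00013). ABHD11 (aug3.g25958), a hydrolase, fell 9.09-fold, from 108 and 107 to 12.4 and 11.2 RPKM (adjusted p = 0.0018). The equilibrative nucleoside transporter (aug3.g7477) fell 12.5-fold, from 27.3 and 23.4 to 1.6 and 2.47 RPKM (adjusted p = 1.3e-05). Of the 15 largest falls among described gene models, the others were an E3 ubiquitin ligase (aug3.g19992, 10.6-fold), 2 gene models described as SEC14-like protein 2 (aug3.g13307, 12-fold, and aug3.g13305, change −2.76), an NPC2 homolog (aug3.g6680, 8.81-fold) and a RING-H2 finger protein (aug3.g22384), which had 22 and 5 reads at st5 late and none at st7. CTP synthase 1 (aug3.g13797), the enzyme that makes the nucleotide CTP, fell 2.63-fold, from 534 and 699 to 202 and 268 RPKM (adjusted p = 0.0037).

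Genes of protein synthesis and of respiration were listed apart. None of 84 tested cytosolic ribosomal protein genes passed the limma test (median change −0.19), and neither did any of 79 respiratory chain and ATP synthase genes (median change 0.19). At an unadjusted p under 0.05 there were 0 and 1 of them, and none was called with voom weights. Of 66 tested ribosome biogenesis genes, a list made after the values were seen, 2 fell (3.03%), or 7 called with the replicate block, and 32 had an unadjusted p under 0.05, beside 1679 of 13375 over all gene models. Their median change was −0.68, beside 0.03 over all. The 2 were IMP3 of the U3 ribonucleoprotein (aug3.g27738), which fell 2.31-fold, from 102 and 100 to 46.2 and 41.5 RPKM (adjusted p = 0.028), and KRR1 of the small subunit processome (aug3.g13248), which fell 1.95-fold (adjusted p = 0.047). The KRR1 call was lost with median-ratio scaling and with no filter (adjusted p up to 0.09). That of IMP3 was lost in the fit of st5 early, st5 late, st7 and st8 (adjusted p = 0.052). Histone H1E-like (aug3.g11669), a linker histone, rose 6.03-fold, from 2.43 and 8.29 to 30.1 and 34.6 RPKM (adjusted p = 0.031), the single call among 19 tested histone genes (2 with the replicate block).

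Of the 329 gene models that rose, 55 are described as uncharacterized and 19 have no description, and of the 140 that fell, 39 and 21. The uncharacterized gene model aug3.g9240 reached 385 and 233 RPKM at st7, from 27 and 7.02 RPKM at st5 late (18.2-fold, change 4.33, SE 0.62, adjusted p = 0.00092). The uncharacterized gene model aug3.g4611 was at 70.1 and 40.1 RPKM and then at 2.48 and 1.38 RPKM (28.6-fold lower, change −4.23, SE 0.34, adjusted p = 1.6e-05).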

How the data were processed

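Poly(A) mRNA of whole embryos was sequenced by the authors, aligned to Ptep_1.0 with BLAT, filtered for long, close and unique matches, counted per AUGUSTUS gene model with htseq-count (HTSeq 0.6.1p1 in the submitters' processing notes) with regard to strand, and deposited by the authors as RPKM. Each of the 20 value columns was matched to a sample. Coverage tracks were not used here. Whole reads and library totals were recovered from the RPKM values (99.87% of 21765 gene models with reads, within 0.001 reads), and limits from reads cover counting error only.

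RPKM values are not counts, so log2(RPKM + 1) was fitted with limma 3.58.1 (R 4.3.3, eBayes with trend) as 10 stage means over the 20 samples, for gene models at 1 RPKM or more in at least 2 samples. The spread between libraries is therefore that of the 10 stages together (10 residual degrees of freedom). The procedure was run on simulated data drawn without a difference between the pairs of parents, and its behaviour with such a difference was not tested. The replicate number names the pair of parents, and the differences between the pairs at st5 late and st7 correlated over 13375 gene models (r = 0.6), so the fit with the replicate block was given where it changed the call of a named gene model or moved the count of a list by over 1.5 times. A fold is a ratio of mean RPKM, given where the lower stage has at least 20 reads, or where it has none and is set to 3 reads over both libraries. For gene models of few reads the log2 change depends on the addition of 1 and is no bound.

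Gene lists are matches of words in the deposited descriptions, and members and lists were chosen with earlier results of these data known. Named were the 15 largest rises and 15 largest falls among called gene models with a description, up to 4 members per list and a set of developmental genes. The metabolic, multivitamin transporter and ribosome biogenesis lists, and the genes named beyond that rule (such as notum, further Hox, Emx and Rax gene models and the chaperones of the endoplasmic reticulum), were chosen after their values were seen. Names of developmental genes came from the deposited descriptions or from RefSeq (CAS_Ptep_4.0), which served for names alone, and coordinates are those of Ptep_1.0. As alternatives, 0.1 was added in place of 1, the filter was dropped or set to 5 RPKM, and further fits used median-ratio scaling, the replicate block, fewer stages, voom weights on recovered reads and each library left out. Some list and gene results are not reported here. Figures were drawn with matplotlib 3.10.9 in Python 3.11.15.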

Additional observations from a re-analysis of the deposited data

How the results depend on the processing

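With 2 libraries per stage, the count of changed gene models depended on how the spread was estimated. A fit of the 4 libraries of st5 late and st7 alone called 0 gene models, although 2788 had an unadjusted p under 0.05 and limma called 469 over the 20 samples. The smallest two-sided p that an exact permutation test of 2 against 2 libraries can give is 0.333. Without both st6 libraries 709 gene models were called, 492 higher and 217 lower, with each of the 469 among them. The fit of st5 early, st5 late, st7 and st8 called 729, of which 514 were higher and 215 lower, and 379 of the 469 were among them. With 1 of the 4 libraries left out, 186 to 272 gene models were called, 135 to 204 of them higher and 45 to 68 lower, and the stage left with 1 library was assumed to vary like the others. The replicate block, which takes the pair of parents into the fit, called 628, including the 469. Among the 140 gene models named, it changed no call but those of twist and short gastrulation.

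The remaining alternatives called 465 gene models with a pseudocount of 0.1, 440 with no filter, 390 at a minimum of 5 RPKM, 518 with median-ratio scaling and 424 with voom weights, and shared 366, 377, 384, 427 and 372 of the 469. Of the 126 named gene models called, 21 lost the call with a pseudocount of 0.1, 19 with no filter, 15 with voom weights and 6 with median-ratio scaling. They include Hox-A5-like, Sox-13, SOX-14, the POU class 2 factor, GATA-2, HES-1-A, giant-lens-like, Tollo aug3.g1692, laminin alpha, BAMBI and kielin/chordin-like. Leaving out a library of series 1 cost 41 (st5 late) and 54 (st7) of these calls, and a library of series 2 cost 58 and 37. None of the 126 named gene models called reversed its sign under any of these alternatives. Signs of gene models without a call were not compared. Changes of gene models at few reads, such as engrailed or netrin-1 at st5 late, are limited by depth.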
